A study of Arabidopsis thaliana with 8 samples.

Results

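The question addressed was whether Arabidopsis thaliana plants of the sfr3 mutant line and wild-type plants changed the same transcripts, by the same amount, when moved from warm to cold. All 8 arrays entered the comparison, 2 for every pairing of genotype (wild type or sfr3) with temperature (warm or cold). Both genotypes have the Col-0 background per the labels, and sfr3 arose from it by ethyl methanesulfonate mutagenesis. No other allele or agent is named for either genotype. All plants had 38 days of short days (8 h light, 16 h dark) at 20 °C and were at growth stage 1.14. The light was 100 microEinstein and the humidity 70%. Seeds of all samples, the warm groups included, had been treated at 4 °C for 48 h. How cold the treatment was, and how long it lasted, is not stated in the labels. The sample notes name the entire rosette for wild type and the aerial parts for sfr3, while the tissue tag gives aerial tissues for all. Whether collection differed is therefore not settled by the labels. Any such difference cannot be told apart from genotype.

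Plants of temperate climates gain freezing tolerance after a period in the cold, a process called cold acclimation that includes a broad change in transcript levels. The sfr (sensitive to freezing) mutants fail to reach wild-type tolerance after this treatment. The sfr3-1 lesion is known to lie in ACC1, the gene of the cytosolic acetyl-CoA carboxylase, which supplies malonyl-CoA for fatty acid elongation, wax and flavonoid synthesis. Neither ACC1 nor its tandem copy ACC2 was paired with a probe set in the annotation used. The transcript of the mutated gene could therefore not be identified here.

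The cold response of a genotype is its cold mean minus its warm mean on the scale log2(signal + 2.17), where signal is the deposited MAS5 value. The interaction is the sfr3 response minus the wild-type response, so a positive value means that a transcript was raised more, or lowered less, by cold in sfr3. A value was called at an adjusted p below 0.05 in limma over 13648 probe sets. A response is named shared when it was called in both genotypes in one direction and the interaction was not called. A called interaction is named weakened or strengthened by the size of the sfr3 response against that of wild type, and opposite when cold was called in opposite directions.

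Cold sfr3 replicate 1 stood apart from the other arrays. Its median signal was 52.4, against 36.59 to 39.01 on the others, and its added bacterial hybridisation controls stood at 5.75 times their median on the other arrays. The background level, taken as the 95th percentile of 27 dark bacterial control probe sets, was 35.4 on this array and 6.37 to 11.3 on the others. Of the probe sets tested, 85.4% were above that level on it, against 98.8% to 99.8% elsewhere. Its correlation with its own replicate was 0.845, while the other replicate pairs had 0.956 to 0.962. Results are therefore given with and without this array. The fit without it has 1 cold sfr3 array, which is assumed to vary like the other groups. The p-values of that fit do not measure the spread of cold sfr3. Nothing in the labels says that replicates were separate plants or cultures, so the p-values measure a spread that may be technical.

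Across the probe sets tested, the cold responses of the genotypes were positively correlated. Cold changed 3594 probe sets in wild type (26.3% of those tested) and 4261 in sfr3 (31.2%). The order turned with array weights, with 6600 in wild type and 2236 in sfr3. It also turned without cold sfr3 replicate 1 and without warm sfr3 replicate 1 or 2. Each of those fits has 1 array in an sfr3 group, which widens the error of the sfr3 response relative to that of wild type. The order of the counts there is therefore no measure of the genotypes. A shared response was found for 2664 probe sets (19.5%), of which 1243 rose and 1421 fell. Among the shared rises the median response was 1.29 in wild type and 1.25 in sfr3. Among the shared falls it was -1.51 in wild type and -1.54 in sfr3. The sfr3 response was the larger one for 1308 of the 2664, or 49.1%. That share was 57% without cold sfr3 replicate 1 and 59.3% without cold sfr3 replicate 2, each over the shared responses of that fit. Shared responses were chosen as called in both genotypes in one direction without a called interaction. Their like sizes are therefore in part set by that choice. Over all probe sets tested the responses correlated across genes with a Pearson r of 0.801, of 0.870 without cold sfr3 replicate 1 and of 0.638 without cold sfr3 replicate 2. These points share their arrays and are not independent, so no p is given.

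**Figure D1:**
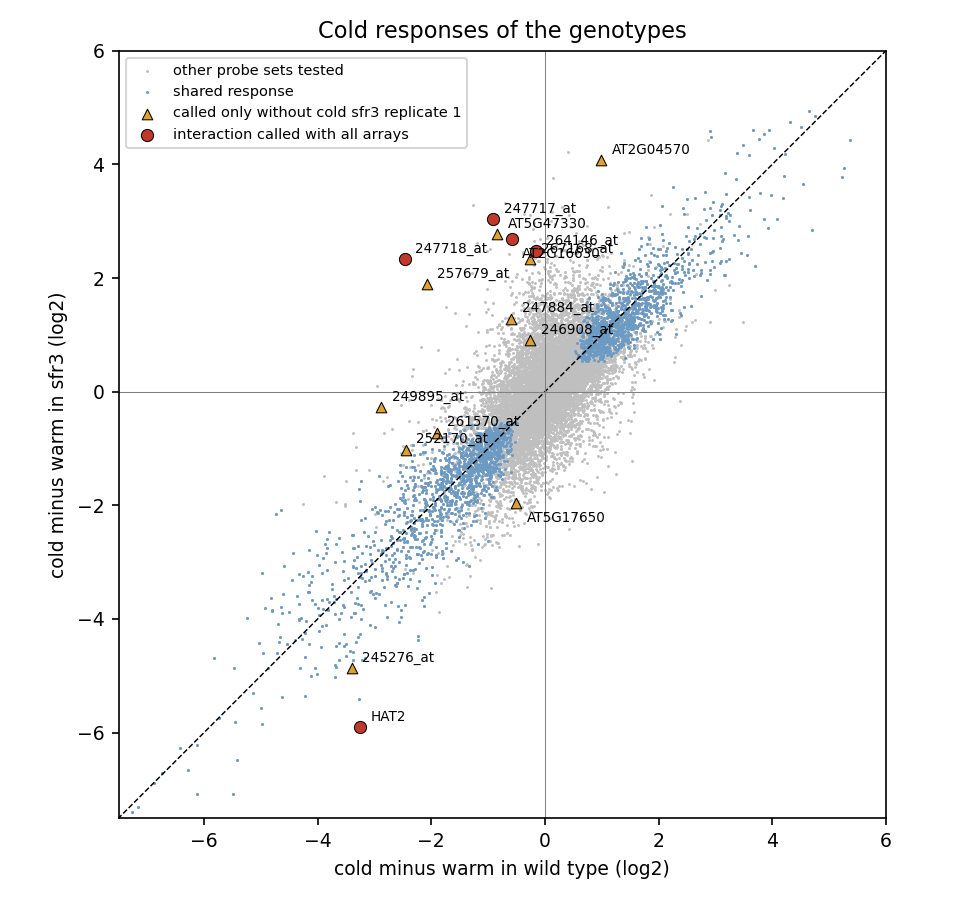
Cold response (cold minus warm, log2) of each tested probe set in wild type (x axis) against sfr3 (y axis), with the dashed line marking equal responses. Blue points are the 2664 shared responses, red circles the 5 probe sets called in the interaction with all arrays, and orange triangles the probe sets called only when cold sfr3 replicate 1 was left out.

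A missing call is not equality, so the precision of each interaction was also examined. The distance from the estimate to either end of its 95% interval had a median of 0.952 over all probe sets tested. The interval lay within 1 log2 unit of 0 for 1157 of the 2664 shared responses (43.4%) and for 3315 of all 13648 (24.3%). For 119 of the shared responses the interaction was at least 2-fold in size without being called. Without cold sfr3 replicate 1 that median was 0.714, and 6272 probe sets had an interval within 1. A further 924 probe sets were called for cold in wild type but not in sfr3, and 1591 in sfr3 but not in wild type. An interaction of at least 2-fold was seen for 128 and 458 of these. Without cold sfr3 replicate 1 the order of the 924 and 1591 was the other way. That fit has 1 cold sfr3 array and so a wider error for the sfr3 response than for that of wild type.

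Of the 5 largest shared falls, 3 belong to the list of sugar starvation genes, which are induced when sugar is short. One of them, AT5G19120, an aspartyl protease family gene, had signals of 1337 and 1123 in warm wild type and of 11.4 and 16.0 in the cold. In sfr3 its signals were 1371 and 1241 in the warm and 5.59 and 19.3 in the cold. The warm and cold arrays were far apart in both genotypes, and the interaction was -0.37 (95% interval -1.67 to 0.93). AT2G32150, AT3G15630, AT2G30600 and AT2G20670 fell too, with responses of -6.43 to -4.44 over both genotypes. Their interactions lay between 0.10 and 0.36, and the sign of each turned when one or another array was left out. AT2G20670 was above background on only 1 cold array of each genotype, and AT5G19120 and AT2G30600 on 1 cold sfr3 array, so the sizes of these falls are uncertain.

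The largest shared rises included AT5G03350, a legume lectin family gene. Its signals rose from 88.6 and 136 to 1975 and 2508 in wild type, and from 92.0 and 92.1 to 1908 and 3366 in sfr3. All cold arrays of both genotypes were above all warm arrays, and the interaction was 0.44 (95% interval -0.51 to 1.38). AT1G07050, which encodes a CCT-motif protein, rose from 8.98 and 9.10 to 212 and 204 in wild type and from 3.61 and 4.75 to 87.7 and 144 in sfr3. Its warm signal was above background on 1 of 2 wild-type arrays and on neither sfr3 array, so the sfr3 rise is known only as at least 12.99-fold. The glycosyltransferase genes AT1G06000 and AT2G16890 and the DnaJ-domain gene AT1G71000 were not above background in the warm in either genotype. Their cold signals were 128 and 131, 90.4 and 72.8, and 86.1 and 67.6 in wild type. In sfr3 they were 72.5 and 89.1, 65.3 and 79.6, and 68.6 and 75.6. These are rises of at least 15.2-fold, 9.56-fold and 8.99-fold in wild type and of at least 9.28-fold, 8.33-fold and 8.32-fold in sfr3.

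The interaction was called for 5 probe sets, 0.0366% of those tested, with 4 values above 0 (0.0293%) and 1 below (0.00733%). At an unadjusted p below 0.05 there were 803, or 5.88%. None was classed as weakened, 3 were strengthened and 2 opposite. At the unadjusted threshold the counts were 190 weakened, 405 strengthened and 5 opposite. All 5 calls were also made without cold sfr3 replicate 1, among 16 in all (0.117%): 13 above 0 and 3 below, in classes of 3 weakened, 7 strengthened and 6 opposite. At an unadjusted p below 0.05 there were then 1294, or 9.48%. Each of the 5 started from close levels in the warm, where sfr3 minus wild type lay between -0.19 and 0.19. No probe set was called between the genotypes in the warm, whereas 17 (0.125%) were called in the cold.

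The gene AT2G16630, which encodes a member of the pollen Ole e 1 and extensin family of proline-rich cell wall proteins, showed a strengthened rise. Its signals were 76.5 and 81.1 in warm wild type, 46.9 and 57.2 in cold wild type, 75.7 and 82.9 in warm sfr3 and 475 and 572 in cold sfr3. Both cold sfr3 arrays were above the other 6, and in wild type both cold arrays were below both warm ones. The response was 2.68 in sfr3 and -0.59 in wild type, where it was not called (adjusted p = 0.0751, limma). The interaction was 3.27 (SE 0.30, limma adjusted p = 0.0112). Without cold sfr3 replicate 1 it was 3.40, and the wild-type fall was then called too, which placed the gene in the opposite class.

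The unnamed probe sets 247717_at and 247718_at fell in wild type and rose in sfr3. For 247717_at the signals were 344 and 423 in warm and 233 and 175 in cold wild type. They were 309 and 365 in warm and 2387 and 3205 in cold sfr3. The cold therefore separated the genotypes completely, by 3.76 on the log2 scale, from warm levels that overlapped. The interaction was 3.95 (SE 0.32, limma adjusted p = 0.00683) and 4.16 without cold sfr3 replicate 1. For 247718_at the signals were 283 and 512 in warm and 87.5 and 51.5 in cold wild type, and 316 and 550 in warm and 2518 and 1765 in cold sfr3. Its interaction of 4.80 (SE 0.54, limma adjusted p = 0.0310) was the highest of all tested probe sets. No gene is paired with either probe set in the annotation used.

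The third unnamed probe set, 264146_at, rose in sfr3 from 115 and 122 to 577 and 774. In wild type its signals were 98.9 and 109 in the warm and 84.6 and 101 in the cold, groups that overlapped. The interaction was 2.64 (SE 0.30, limma adjusted p = 0.0310) and 2.85 without cold sfr3 replicate 1.

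The single call below 0 was HAT2, a class II homeodomain-leucine zipper transcription factor gene that is induced by auxin. Its signals were 485 and 428 in warm wild type and 50.6 and 41.7 in the cold. In sfr3 they were 451 and 552 in the warm and 6.31 and 6.15 in the cold. HAT2 was thus lowered in both genotypes, and in cold sfr3 it was not above background on either array. The fall was 9.92-fold in wild type and at least 27.4-fold in sfr3, so the sfr3 fall was at least 2.76 times that of wild type. The fitted interaction was -2.65 (SE 0.32, limma adjusted p = 0.0416) and depends on the pseudocount: with 16 in place of 2.17 it was -1.61, with an adjusted p of 0.219 in limma.

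**Figure D2:**
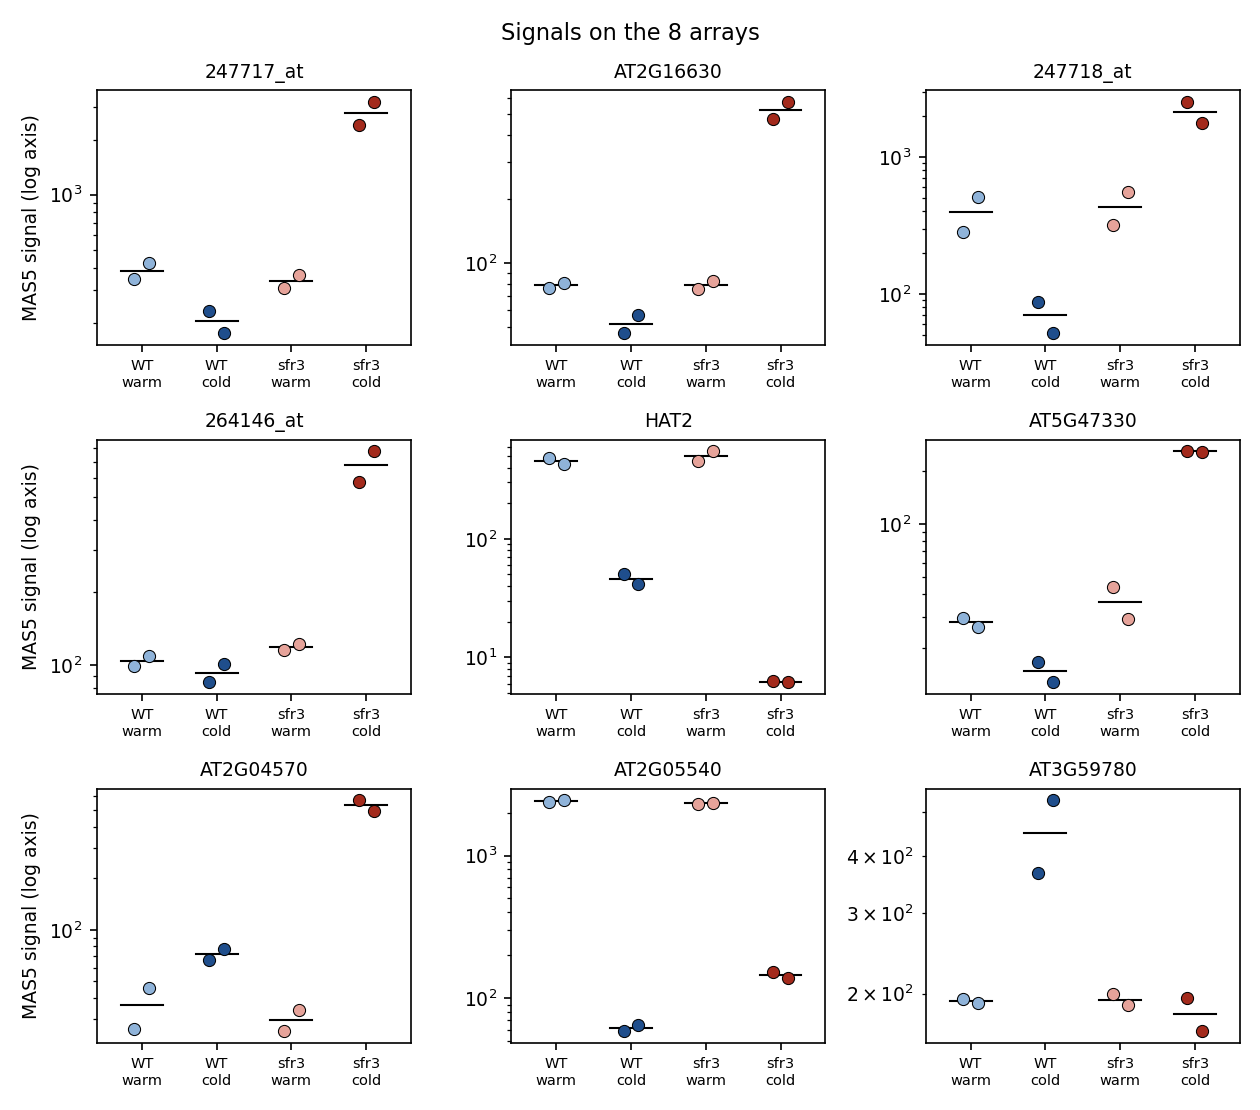
MAS5 signal (log axis, each panel with its own range) of 9 transcripts on each array, with replicate 1 left and replicate 2 right in each group and a line at the group mean. The top row, 264146_at and HAT2 are the 5 called in the interaction; the other 4 were not called with all arrays.

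The calls rest on few arrays. The probe set 247717_at was called in 4 of the 8 fits that left out 1 array, and each of the other 4 in 2 of the 8, those without either cold sfr3 array. Their interactions stayed between 3.73 and 4.16 for 247717_at, 3.13 and 3.41 for AT2G16630, 4.37 and 5.22 for 247718_at, 2.43 and 2.85 for 264146_at, and -2.79 and -2.50 for HAT2.

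Of the 11 probe sets called only without cold sfr3 replicate 1, 3 were paired with 1 gene. AT5G47330, of the palmitoyl protein thioesterase family, had signals of 29.5 and 26.3 in warm and 16.6 and 12.8 in cold wild type, and of 43.9 and 28.9 in warm and 258 and 255 in cold sfr3. The cold sfr3 arrays were far above the other 6, and the interaction was 3.61 (SE 0.47, limma adjusted p = 0.0573 with all arrays and 0.0117 without that one). AT2G04570, a GDSL lipase family gene, rose in both genotypes, from 26.5 and 46.0 to 66.7 and 77.1 in wild type and from 25.6 and 33.9 to 572 and 491 in sfr3. Its interaction was 3.08 (SE 0.43, limma adjusted p = 0.0667 with all arrays and 0.0187 without that one). AT5G17650 had 42.7 and 7.25 in cold sfr3 against 41.8 and 38.9 in cold wild type. Its interaction of -1.45 with all arrays and -2.57 without cold sfr3 replicate 1 thus rests on 1 array below background.

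The other 8 of the 11 have no gene in the annotation used. The probe set 257679_at went from 55.7 and 53.1 to 13.9 and 9.01 in wild type and from 35.0 and 32.4 to 157 and 110 in sfr3. It was called for cold in opposite directions, and its interaction of 3.98 just missed the threshold with all arrays (limma adjusted p = 0.0503). The probe set 247884_at, with an interaction of 1.88, was likewise lowered in wild type and raised in sfr3. Falls of wild type that were smaller in sfr3 were seen for 249895_at (-2.88 against -0.27), 252170_at (-2.45 against -1.02) and 261570_at (-1.90 against -0.72). These 3 made up the weakened class without cold sfr3 replicate 1. The last 3 of the 8 were then strengthened: 267168_at (interaction 2.59 with all arrays), 246908_at (1.16) and 245276_at. The last was not above background on either cold sfr3 array, and its falls of 11.2-fold in wild type and at least 14.4-fold in sfr3 bound its interaction only at -0.36.

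The 20 genes named for the interaction, 10 on each side of 0, were the called ones and those with the smallest p after them. The 18 that were not called had adjusted p-values of 0.0573 to 0.733 in limma. Among those above 0, AT5G53710 had signals of 31.3 and 25.9 in warm and 167 and 167 in cold sfr3, while in wild type it had 28.6 and 21.3 in the warm and 22.8 and 14.8 in the cold. Its interaction was 2.85 (95% interval 1.67 to 4.02). AT1G68700 had the widest interval, 1.84 to 6.20, with cold sfr3 signals of 138 and 45.8 and no warm sfr3 signal above background. AT4G21620, a glycine-rich protein gene, had an interaction of 1.25.

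Other members of the positive side fell in wild type and less, or not at all, in sfr3. AT2G05540, a glycine-rich protein gene, fell from 2384 and 2454 to 58.5 and 64.7 in wild type and from 2310 and 2356 to 153 and 138 in sfr3. The warm levels of the genotypes lay close together, and both cold sfr3 arrays were above both cold wild-type arrays. The interaction was 1.26 (SE 0.23, limma adjusted p = 0.365), with 1.19 to 1.33 over the fits that left out 1 array. AT5G65380, of the MATE efflux transporter family, fell in both, with -2.34 in wild type and -1.23 in sfr3. AT2G27080, a late embryogenesis abundant hydroxyproline-rich family gene, fell by 2.40 in wild type. Its sfr3 signals were 44.0 and 41.6 in the warm and 38.2 and 38.2 in the cold, and its warm level in sfr3 was already 1.44 below that of wild type on the log2 scale. AT1G34750, a type 2C protein phosphatase family gene, had responses of -1.05 and 0.67.

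On the negative side, some genes had a positive response in wild type and a negative value in sfr3 that was not called. AT3G59780, which encodes a rhodanese-like domain protein, rose from 195 and 190 to 368 and 531 in wild type. In sfr3 its signals were 199 and 188 in the warm and 195 and 165 in the cold. The cold wild-type arrays were above the other 6, and the interaction was -1.30 (SE 0.30, limma adjusted p = 0.733). AT3G01980 rose by 1.33 in wild type and had -0.19 in sfr3. NOL, a chlorophyll b reductase gene, rose by 0.71 in wild type and had -0.47 in sfr3. AT5G26360, a subunit gene of the cytosolic TCP-1 chaperonin, had 0.44 and -0.53, neither called.

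The remaining genes below 0 were mostly deeper falls in sfr3. AT5G08520, a MYB-like gene, fell from 241 and 203 to 78.6 and 95.1 in wild type and from 254 and 271 to 24.5 and 35.4 in sfr3. AT2G35880, a TPX2 family gene, fell with responses of -2.13 in wild type and -3.78 in sfr3, and AT1G62480 with -3.68 and -4.84. AT3G62950, a glutaredoxin family gene, fell with -3.28 and -5.42. Of these, AT5G08520, AT2G35880 and AT3G62950 were below background on 1 of the cold sfr3 arrays. LSM3B, an Sm-like RNA processing gene, had 189 and 165 in warm sfr3 against 93.9 and 76.6 in warm wild type. In the cold its signals were 91.9 and 90.8 in sfr3 and 107 and 125 in wild type, so its responses were 0.44 in wild type, not called, and -0.93 in sfr3. Its interaction of -1.38 includes a warm difference of 1.04.

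**Figure D3:**
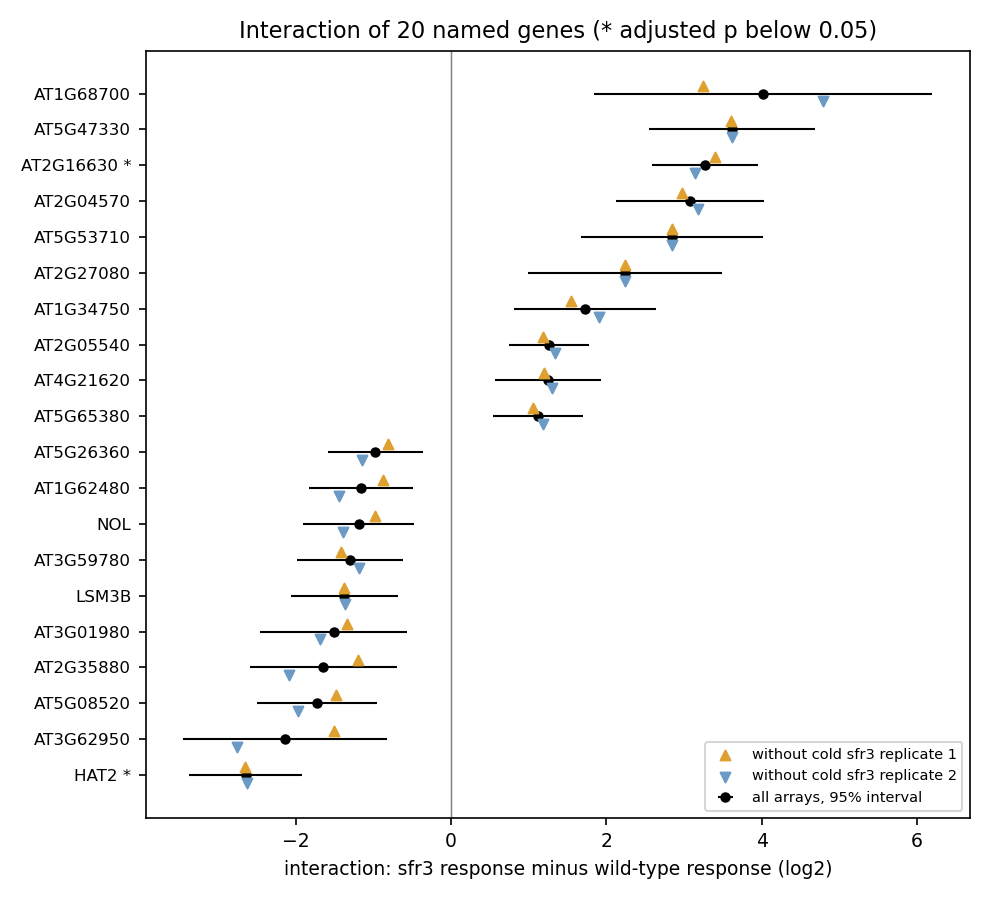
Interaction (sfr3 cold response minus wild-type cold response, log2) of the 20 named genes. Circles and bars give the estimate and 95% interval with all arrays, and triangles the estimate without either cold sfr3 array; asterisks mark AT2G16630 and HAT2, the called genes.

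A description by size, chosen after the data were seen, gives a wider view. It keeps probe sets whose responses were apart for all pairs of arrays, that differed at least 2-fold with all arrays and with either cold sfr3 array alone, and that were called for cold in a genotype. Responses were apart for 3085 probe sets (22.6%). All criteria were met by 252, or 1.85% of those tested, and no test is attached to them. Of these, 178 were larger in sfr3 (129 rises and 49 falls), 69 were smaller (22 rises and 47 falls) and 5 ran in opposite directions. The interaction was above 0 for 181 of the 252. Of all probe sets tested, 84.9% were above background on both cold sfr3 arrays, as were 16 of the 22 smaller rises and 34 of the 47 smaller falls. All 129 of the larger rises, but only 4 of the 49 larger falls, were so too. The choice by size itself favours high cold sfr3 signals in the former and low ones in the latter. The larger falls thus lie where cold sfr3 was near its background, and the part of that array's background in them was not tested.

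Among the larger rises was AT3G22240, with 287 and 449 in warm and 2170.3 and 3470.4 in cold wild type, and 291 and 248 in warm and 6222 and 5925 in cold sfr3. It rose in both genotypes, and its cold sfr3 signals were above both cold wild-type signals (interaction 1.56, limma adjusted p = 0.733). Among the smaller rises was AT1G31690, a copper amine oxidase family gene. Its signals went from 12.6 and 25.1 to 528 and 509 in wild type and from 37.1 and 14.4 to 122 and 271 in sfr3 (interaction -1.84, limma adjusted p = 0.733). Among the smaller falls was AT1G18740, with 211 and 157 in warm and 78.6 and 59.8 in cold wild type against 142 and 164 and then 124 and 119 in sfr3.

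The known cold pathway was described through gene lists, of which 58 of 316 genes had a tested probe set. For comparison, the median interaction over all probe sets tested was 0.00 with quartiles of -0.36 and 0.40. Cold was called higher for 13% of all probe sets in wild type and 14.9% in sfr3, and lower for 13.3% and 16.4%, shares against which the counts of every list and family are to be read. Of 7 genes of the cold-regulated (COR) list, 5 rose in wild type and 4 in sfr3, and no interaction was called. The list joins effectors, which protect membranes and proteins during freezing, with the regulator COR27 and AT4G33980, the gene of the related COR28. The median interaction of all 7 was -0.42 with all arrays and 0.09 without cold sfr3 replicate 1, so it is not that of the effectors alone. COR15A, a chloroplast stroma protein that protects membranes, rose by 3.37 in wild type and 3.75 in sfr3. LTI30, a dehydrin, rose by 2.83 and 3.01. COR15B rose by 2.67 and 2.88. These 3 had interactions of 0.18 to 0.38. COR47 and LEA4-5, also of this list and called for cold in neither genotype, had -0.42 and -1.30. Without cold sfr3 replicate 1 that pair had 0.05 and 0.09.

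COR27, a cold-induced regulator of the circadian clock and of freezing tolerance, rose by 3.40 in wild type and 2.67 in sfr3 (interaction -0.73, limma adjusted p = 0.733). AT4G33980, the gene of the related COR28 protein, had 20.4 and 18.9 in warm and 77.0 and 142 in cold wild type. It had 35.5 and 26.8 in warm and 74.3 and 51.4 in cold sfr3, so that all cold wild-type signals were above all cold sfr3 signals. It was called for cold in wild type alone, with an interaction of -1.34 (95% interval -2.57 to -0.10, limma adjusted p = 0.733). GI, a clock gene, rose by 1.45 and 0.90. Of the early cold transcription factors only STZ, a zinc finger repressor, was tested, and it fell with -2.35 in wild type and -1.33 in sfr3.

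Carbohydrate genes had mostly negative interactions without a call. Of 4 tested genes that act on starch, sugars or proline, 2 rose in wild type and 3 in sfr3, with a median interaction of -0.48. ATSPS4F, a sucrose phosphate synthase, had 56.8 and 68.8 in warm and 314 and 281 in cold wild type, and 55.5 and 83.6 in warm and 144 and 186 in cold sfr3. It rose in both, and its cold signals did not overlap between the genotypes (interaction -0.97, SE 0.36, limma adjusted p = 0.733). PWD, phosphoglucan water dikinase, which phosphorylates starch before its breakdown, rose by 2.51 and 2.16. All 6 sugar starvation and dark-inducible genes fell in both genotypes, with a median interaction of 0.07. MCCA, a subunit of the leucine-degrading methylcrotonyl-CoA carboxylase, fell with -4.39 in wild type and -4.36 in sfr3.

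Of 5 flavonoid and anthocyanin genes, 3 rose in wild type and 3 in sfr3, 2 of them in both. The median interaction was -0.54. UGT78D2, a flavonoid glucosyltransferase, rose by 1.61 and 1.90. UGT78D1, which adds rhamnose to flavonols, was called in wild type, where it rose from 44.9 and 35.4 to 121 and 156, and not in sfr3. Its cold sfr3 signals of 17.0 and 56.5 lay on both sides of the warm ones of 21.9 and 28.3, the first below the background of its array, and its interaction of -1.43 became -0.62 without cold sfr3 replicate 1. It was then called as rising in both genotypes.

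Of 10 autophagy genes, mostly of the ATG8 family that tags autophagosome membranes, 7 fell in wild type and 8 in sfr3, with a median interaction of -0.20. ATG8E fell with -3.70 in wild type and -5.01 in sfr3, and its interaction of -1.31 was -0.42 without cold sfr3 replicate 1, where its signal was 9.56 against 38.1 on the other cold sfr3 array. All 5 auxin, shade and growth genes fell in both genotypes, HAT2 being the 1 with a called interaction. The others had interactions of both signs: IAA29, an auxin-responsive repressor, -0.45, EXPA8, an expansin, -0.75, and GH3.3 and WES1, auxin-conjugating enzymes, 1.12 and 1.14. Without cold sfr3 replicate 1 the last pair had 0.69 and 0.22.

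Lipid genes are of interest because of the enzyme affected in sfr3. Of 5 genes of plastid fatty acid synthesis, 1 fell in both genotypes and 1 was called as rising in sfr3, AT2G22230, with 0.64 in wild type (not called) and 0.77 in sfr3. All interactions lay between -0.13 and 0.31. FATB, an acyl carrier protein thioesterase, fell with -0.90 and -1.04. Of 3 wax and cutin genes, AT5G33370, a GDSL lipase family gene, rose by 1.05 and 1.61. SHN3, a transcription factor of cuticle synthesis, rose by 2.07 in wild type; in sfr3 it was at 5.66 and 2.54 in the warm, not above background, and higher in the cold, where replicate 2 had 41.4. WSD1, a wax ester synthase, had 7.90 and 2.57 in warm and 9.16 and 1.48 in cold wild type, and 20.9 and 10.5 in warm and 39.8 and 123 in cold sfr3. Neither of its responses was called, and the interval of its interaction was -1.05 to 5.43.

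**Figure D4:**
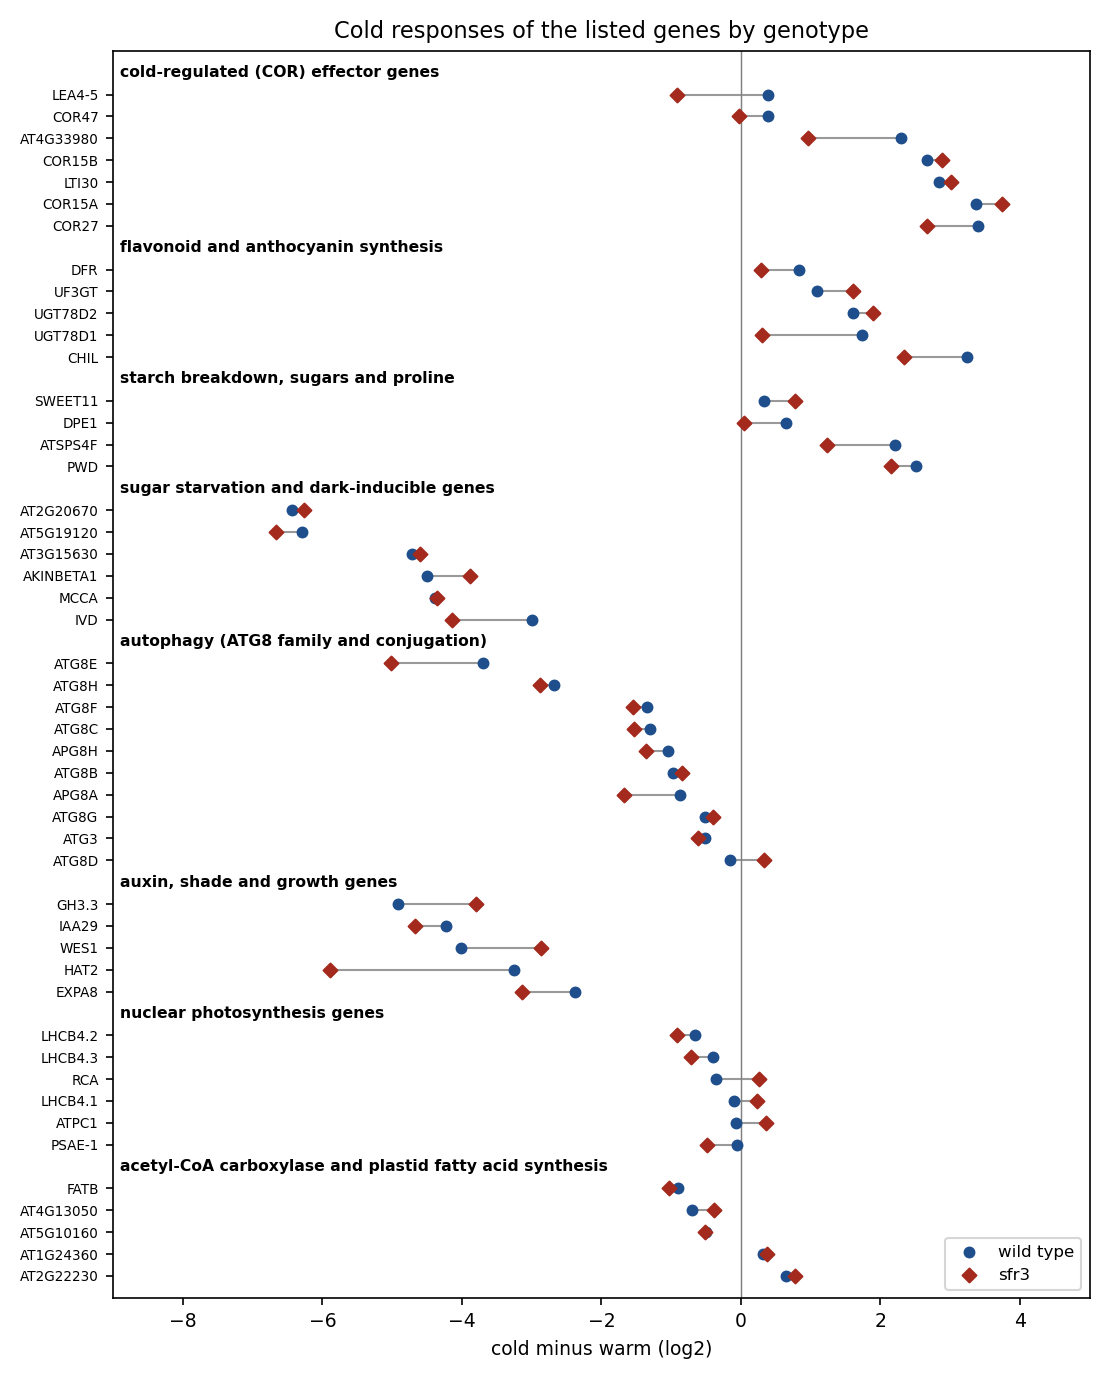
Cold response (cold minus warm, log2) of the tested members of 8 gene lists in wild type (blue circles) and sfr3 (red diamonds), with a line joining the same gene. Most pairs lie close together, and HAT2, called in the interaction, has -3.25 and -5.90.

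Leaf and root markers were read in the same fit. RCA, the Rubisco activase gene of leaves, had signals of 5760 to 8609 on all arrays. PYK10, a beta-glucosidase typical of roots, was at 196 and 132 in warm and 28.8 and 31.8 in cold wild type, and at 202 and 199 in warm and 112 and 40.01 in cold sfr3. It fell in both genotypes, and its interaction of 0.78 was 0.06 without cold sfr3 replicate 1. It was the only tested root marker, and no flower or seed marker was paired with a probe set. In whole tissue, fewer cells of a type and less RNA per cell cannot be told apart.

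Transcripts encoded in the plastid genome leaned one way without a call. Of 69 tested, 57 had a positive interaction, against 6809 of all 13648 probe sets. Without cold sfr3 replicate 1 it was positive for 46 of the 69 and 7067 of all. The median with all arrays was 0.58, yet none was called. An unadjusted p below 0.05 in limma was seen for 7 of the 69 and for 5.88% of all probe sets. Cold raised 2 of them in wild type and 8 in sfr3, and lowered 2 in sfr3, psbJ and rps14; these shares are below those of all probe sets tested. By complex, the 5 photosystem I transcripts had a median of 1.48, the 6 of ATP synthase 0.77, the 15 of photosystem II 0.78, the 10 of the NADH dehydrogenase-like complex 0.76, the 6 of the cytochrome b6f complex 0.48, the 4 of the RNA polymerase 0.34 and the 15 of the ribosome 0.11. The other 8 had 0.78, and 0.54 without cold sfr3 replicate 1. Without that array the medians of the complexes were, in the same order, 1.05, 0.28, 0.30, 0.20, -0.06, 0.22 and -0.10.

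The plastid values moved with single arrays. The median signal of the 69 transcripts was 572 on warm sfr3 replicate 1 and 1126 to 1836 on the other 7 arrays. Without that array the median interaction was 0.03, and without cold sfr3 replicate 1 it was 0.29. The photosystem I subunit transcript psaJ had 1561 and 3339 in warm and 12411 and 4359 in cold sfr3, against 3477 and 3643 in warm and 2952 and 3088 in cold wild type. The extremes in sfr3 were the 2 arrays of replicate number 1. The part of these arrays' RNA or labelling in the shift was not tested.

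**Figure D5:**
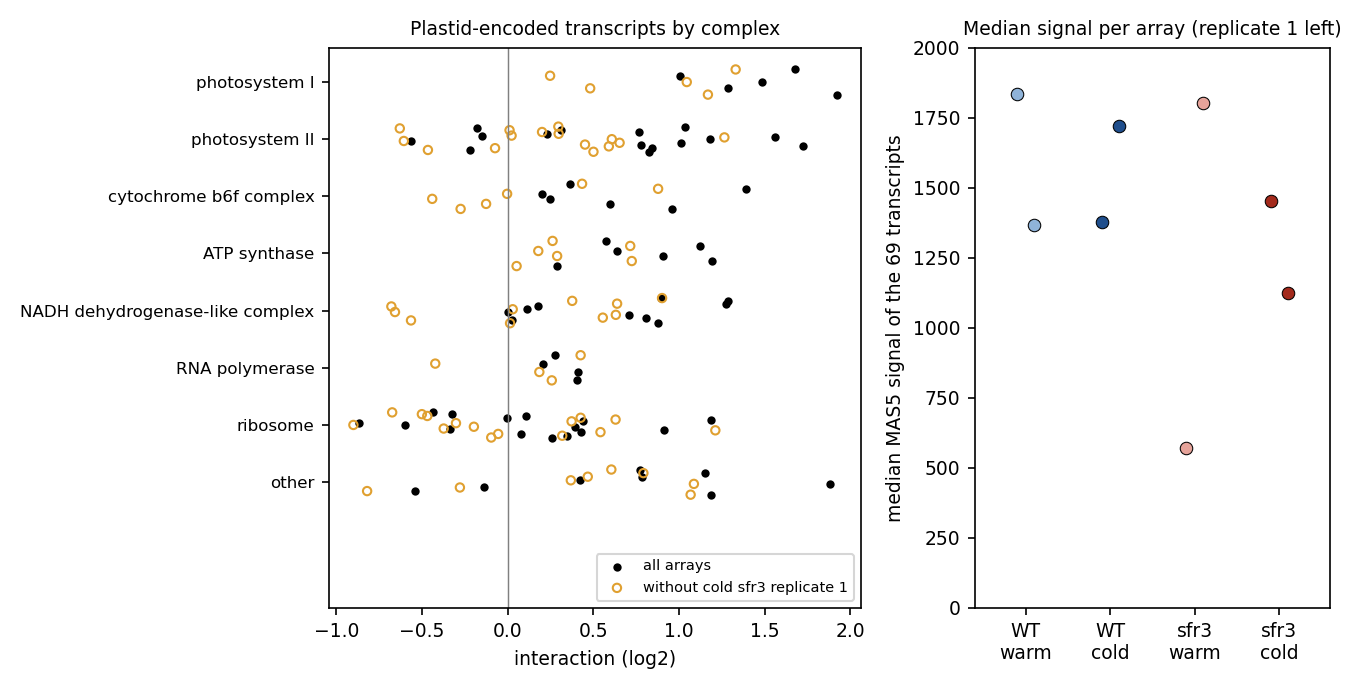
Left, interaction (log2) of the 69 plastid-encoded transcripts by complex, with all arrays (black) and without cold sfr3 replicate 1 (open orange). Right, median MAS5 signal of the 69 transcripts on each array, where warm sfr3 replicate 1 is the lowest at 572.

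Families grouped by their annotation gave no called interaction. Of 20 UDP-glycosyltransferase genes, 3 rose and 6 fell in wild type and 5 rose and 4 fell in sfr3, with a median interaction of 0.06. The shares of rises in wild type and of falls in sfr3 are near those of all probe sets. The family was matched by annotation words and is partial. It leaves out the glycosyltransferase genes AT1G06000 and AT2G16890, named above among the shared rises. Of 21 pectin and cell wall genes the median was 0.11. EXPA15, an expansin gene, had a response of 0.37 in wild type and 1.38 in sfr3. PME61, a pectin methylesterase gene, had -0.13 and -2.20, and its interaction of -2.06 was -0.84 without cold sfr3 replicate 1. Of 6 WRKY transcription factor genes, 3 fell in wild type and 1 in sfr3, the latter near the share of all probe sets, with a median interaction of 0.55.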

How the data were processed

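ATH1 arrays were hybridised with biotin-labelled RNA, and the intensity deposited for each probe set is a linear MAS5 signal. MAS5 and GCOS are named per the submitters' processing notes, with no version. The 2% trimmed mean of each array lies near 100. The 64 control probe sets were left out. A pseudocount of 2.17 (10th percentile of all values) was added before taking log2, which understates changes of dim genes. The 60% brightest probe sets (mean at least 26.7) were tested in limma 3.58.1 under R 4.3.3, with a mean per group, an intensity trend and 4 residual degrees of freedom. P-values are two-sided, adjusted by Benjamini-Hochberg over all 13648; adjusted p-values of genes are limma's. Of these, 7336 were paired with 1 gene, 277 with several and 6035 with none (TAIR10.1 names only). A gene not above background on both arrays of a group has a fold bound, from the array's background level or its own signal where higher.

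The named genes are the 10 on each side of 0 that were called or had the smallest interaction p, the 5 largest of each class, and per list the called members (up to 3) or the smallest p. Probe sets called without cold sfr3 replicate 1, and those outside this rule, were named after their values were seen. Members and lists were chosen with earlier results of these data known. Replicate numbers were not used to pair the samples in the main fit. The replicate differences of the groups correlated at -0.09 to 0.05, which cannot show whether samples were handled in pairs. The computation was tested on simulated data.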

Additional observations from a re-analysis of the deposited data

Results flagged for a closer look

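The cold response differed between the genotypes, by the test of the interaction itself, for 5 probe sets. The interaction (log2, sfr3 minus wild type) was 3.95 for 247717_at, 3.27 for AT2G16630, 4.80 for 247718_at, 2.64 for 264146_at and -2.65 for HAT2. HAT2 was not above background on either cold sfr3 array, so its fitted value is no bound; the bound is -1.47. Each had the same sign in all 8 fits that left out 1 array. On all arrays 247717_at, 247718_at and AT2G16630 were lower in cold than in warm wild type and higher in cold than in warm sfr3; the wild-type fall of AT2G16630 was not called with all arrays.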

How the results depend on the processing

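Each alternative changed 1 choice. The count of 5 interaction calls became 3 under quantile normalization, 0 under median centring of the arrays, 4 with a replicate block, 4 with no filter on low values and 7 with array weights or a pseudocount of 16. The 4 calls of the replicate block were among the main 5, and HAT2 was the one lost (limma adjusted p = 0.0686). Strengthened responses became 0 under median centring, and opposite ones 1 under quantile normalization, 0 under centring and 5 with array weights. Centring moved the median interaction of all probe sets to -0.31, and the share of rises among shared responses from 46.7% to 37.4%. Under it the 5 called interactions were 3.63, 2.96, 4.49, 2.33 and -2.96, in the order of the preceding section, with a smallest adjusted p of 0.105 in limma; 754 had an unadjusted p below 0.05. The plastid median was then 0.26, and the COR median -0.73. Leaving out 1 array gave 0 to 3802 interaction calls, 1344 to 4222 shared, 0 to 805 weakened, 0 to 2654 strengthened and 0 to 260 opposite. The count of 3802 came without cold sfr3 replicate 2, which leaves the array that stood apart as the lone cold sfr3 sample, assumed to vary like the other groups. Leaving out any wild-type or warm sfr3 array gave 0 to 2 calls. Of 938 values for 56 genes and probe sets under 17 alternatives, 824 kept their sign and side of the threshold, 49 gained a call, 39 lost one and 26 changed sign. Sign changes were AUR1 -0.077 under centring, AT3G15630 -0.11 under quantile normalization and -0.19 under centring, AT2G20670 -0.015 and -0.15, AT2G30600 -0.16 and -0.22, and AT1G71000 -0.080 and -0.16, with -0.020 at a pseudocount of 16. With 1 array left out the ranges of genes that changed sign were -0.40 to 0.30 for AT1G07050, -0.19 to 0.50 for AT1G71000, -1.28 to 0.47 for AT2G16890, -1.19 to 1.51 for AT2G20670, -0.50 to 0.69 for AT2G30600, -0.27 to 0.98 for AT2G32150, -0.39 to 0.63 for AT3G15630, -1.11 to 0.36 for AT5G19120, -0.065 to 0.53 for AUR1 and -0.044 to 3.13 for PDF1.2. The cause of these changes was not tested. Signal near background limits the falls in cold sfr3.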
